A study of Homo sapiens with 12 samples.

Results

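A375 is an established human cell line from a skin melanoma. Its cells were given fluorescent beads of 2.4 µm for 24 h and sorted by flow cytometry. The comparison here sets the branch that had taken up beads (A375 positive, 3 libraries) against the branch that had not (A375 negative, 3 libraries). It covers every gene whose normalized read count averaged at least 10 over those 6 libraries. Both branches went through 5 cycles of sorting with growth in between, and the labels name no added allele or drug for either. Their 6 libraries are part of the series' 12. Of 19423 genes in the A375 table, 14118 met that minimum. A branch is a sorted sub-population of 1 line, and the labels do not say whether its 3 libraries came from separate cultures, so p-values measure the spread between these libraries, which may be technical. The series title ties uptake capacity to cell deformability and cancer aggressiveness.

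Cells that are not professional phagocytes can engulf particles of this size by wrapping plasma membrane round them. Wrapping draws on actin polymerization, on proteins that link the membrane to the cortex, on phosphoinositide lipids that mark the forming cup, and on a surface coat of proteoglycans that the particle meets first. The engulfed particle then moves along microtubules and fuses with endosomes and lysosomes. Melanoma cells descend from neural crest, and many of them switch between pigmented, neural and mesenchymal programmes of gene expression.

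Levels are the authors' normalized read counts, which are counts divided by a size factor for each library. A log2 fold change is the positive minus the negative mean of log2(value + 1), a scale that understates the change of low genes. A gene was called at an adjusted p of at most 0.05 (limma, Benjamini-Hochberg over the 14118 genes). Estimated depth was 15035233 to 16342961 reads in positive and 15362588 to 15543172 in negative libraries. By the sample numbers in the labels, positive replicates 1 and 2 and negative replicate 1 form a low set (2 to 5) and positive replicate 3 and negative replicates 2 and 3 a high set (19 to 22). The labels do not explain these numbers. Libraries of 1 branch and 1 set lay close to sampling noise (chi-square per degree of freedom 1.63 and 1.43), whereas those of different sets differed by 12.9 to 14.4.

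None of the 7 leukocyte and macrophage markers in the table reached the minimum level, and their summed level was 11.3 to 42.7 in positive and 10.0 to 40.5 in negative libraries. The 7 fibroblast markers summed to 138 to 164 in positive and 96.1 to 136 in negative libraries, and the 5 endothelial ones to 170 to 242 in positive and 134 to 193 in negative libraries. The 5 keratinocyte and epithelial ones summed to 502 to 569 in positive and 430 to 511 in negative libraries, almost all of it KRT10. EPCAM was at 0 in every library but 1. The 3 urothelial ones, listed for the series' other cell line, summed to 79.4 to 94.5 in positive and 144 to 161 in negative libraries, most of it PPARG, with KRT7 at 0 to 2.8. The 9 melanocyte lineage markers summed to 13493 to 16886 in positive and 15802 to 27842 in negative libraries, and were present in every library. Their part in the results below was not tested. In bulk RNA, fewer cells of a kind and less RNA per cell cannot be told apart.

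Bead-positive and bead-negative A375 cells differed in 1447 of 14118 genes (10.2%), 704 higher (4.99%) and 743 lower (5.26%) in positive cells. Most differences were modest. Among genes called higher, 165 were below 1.25-fold, 212 between 1.25-fold and 1.5-fold, 150 between 1.5-fold and 2-fold, 129 between 2-fold and 4-fold and 48 at 4-fold or more, with a median of 1.46-fold. Among genes called lower the same steps held 164, 310, 103, 118 and 48, with a median of 1.38-fold. Called genes were 7.36% of those with a mean of 10 to 50 and 12.2% of those at 5000 or more. Of the called genes, 596 (4.22% of those tested) changed at least 1.5-fold. The ranges of the branches were separate in every called gene, and in 29.5% of all tested genes. With the number set as a block, 4523 genes were called (32.0%), 2199 higher (15.6%) and 2324 lower (16.5%), the 1447 among them. The low set holds more positive and the high set more negative libraries. Folds given without the block can therefore carry part of a set difference, and be larger or smaller than with it. Without positive replicate 1 or 2, or negative replicate 2 or 3, the count fell to 546, 487, 526 and 592, and 213 higher and 220 lower genes kept their call whichever library was left out. Positive replicates 1 and 2, and negative replicates 2 and 3, each share a number set and lay close to sampling noise. Leaving out 1 of them keeps its like, so a kept call does not show that the libraries are independent. With same-set libraries averaged, 53 genes (0.375%) were called. Genes said below to be higher or lower with their own values are among the 433 kept calls unless their sentence says otherwise. The counts of called members per list are over all 1447. Over the 44 lists with at least 10 tested members, the median called share was 12.9%, and 29 lists were above the 10.2% of all genes. Protein-coding genes alone were at 11.3%. The counting strand is not known, so reads of overlapping genes cannot be told apart. Besides overlaps given with a gene, this touches TENM3, SOX11, SULF2, FSTL1, GABBR2, JAG1, ATG13, DSE and TSG101.

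**Figure D1:**
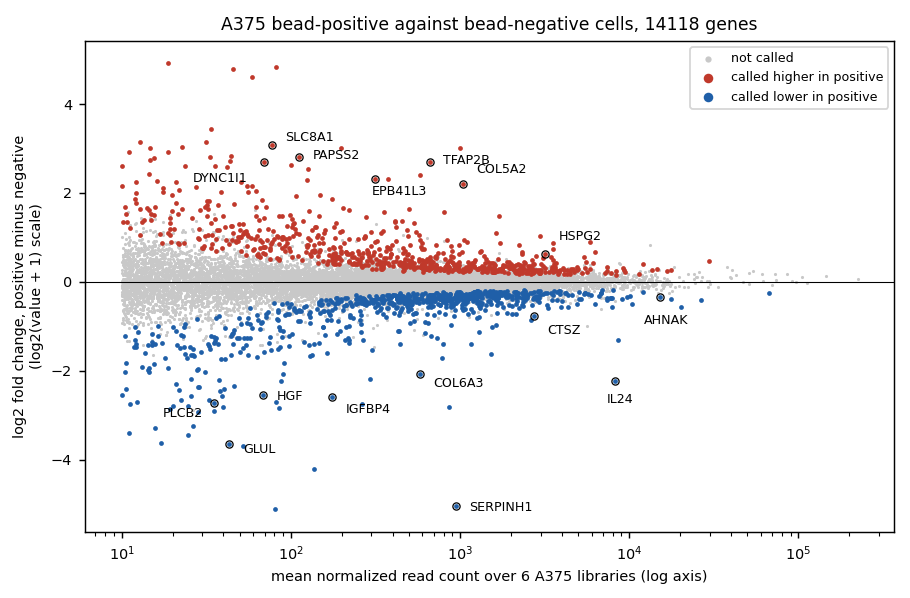
Log2 fold change (positive minus negative, y axis) against the mean normalized read count over 6 libraries (x axis, log scale) for 14118 genes, with genes called higher in red, genes called lower in blue and the rest in grey. Called genes span the whole range of levels, and circles mark some of the genes named in the text, such as COL5A2 at 2.19 and IL24 at -2.22.

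Of 29 basement membrane genes, 2 were called higher and 2 lower (13.8%, against 10.2% of all genes), and 1 of these, HSPG2, held whichever library was left out. COL5A2, a fibrillar collagen chain that sets the thickness of collagen fibrils, was at 1775, 1706 and 1642 in the positive libraries, against 423, 358 and 340.4 in the negative libraries. All 3 positive libraries were high, which made 4.58-fold (log2 fold change 2.19 ± 0.09 SE, adjusted p = 4.7e-05). HSPG2 encodes perlecan, the large heparan sulfate proteoglycan of basement membranes, and was at 4008, 3748 and 3856 in the positive libraries, against 2203, 2543 and 2762 in the negative libraries (log2 fold change 0.63 ± 0.08 SE, adjusted p = 0.00417); part of it overlaps LDLRAD2. ECM1, a secreted glycoprotein that binds perlecan, was at 7056, 6939.8 and 8958 in the positive libraries, against 3337, 4489.8 and 4559 in the negative libraries. Its groups stayed apart, as in every called gene, although positive replicate 3 was above its fellows (log2 fold change 0.89 ± 0.14 SE, adjusted p = 0.00814). In the opposite direction, COL6A3, a chain of the beaded-filament collagen VI, was at 209, 184 and 275 in the positive libraries, against 691, 1012 and 1119 in the negative libraries. Its high-set libraries were above the low-set ones in both branches, and the branches did not overlap, as in every called gene (log2 fold change -2.07 ± 0.20 SE, adjusted p = 0.00137). The log2 fold change of COL6A3 was smaller with the number set as a block (-1.88), and that of ECM1 was larger (1.03). The hyaluronan-binding protein TNFAIP6 stood at 76.8, 96.5 and 116 in the positive libraries, against 19, 20.8 and 21.9 in the negative libraries (log2 fold change 2.16 ± 0.19 SE, adjusted p = 0.000912). CCBE1, a secreted protein needed for lymphatic vessel growth, stood at 183, 182 and 285 in the positive libraries, against 34.9, 36.6 and 35.8 in the negative libraries, and FAP, a membrane protease of activated fibroblasts, rose 4.47-fold with positive replicate 3 well above the rest; its locus overlaps AC007750.5.

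Sulfated sugar chains are built and trimmed by a set of 52 tested genes, mainly but not only for heparan sulfate and chondroitin. Of these, 6 were called higher and 3 lower (17.3%, against 10.2% of all genes). Their median log2 fold change was 0.02, against -0.0002 over all genes tested. PAPSS2, which makes the sulfate donor PAPS and was not on that list, was at 193, 198 and 198 in the positive libraries, against 27.9, 28.7 and 24.9 in the negative libraries. Each branch was tight, and positive cells were 7.01-fold higher (log2 fold change 2.81 ± 0.12 SE, adjusted p = 6.87e-05). CHST2, a sulfotransferase acting on N-acetylglucosamine, was at 764, 796 and 685 in the positive libraries, against 397, 342 and 296 in the negative libraries (log2 fold change 1.12 ± 0.12 SE, adjusted p = 0.00155). DSE, the epimerase that turns chondroitin into dermatan sulfate, was at 41.5, 49.2 and 44.6 in the positive libraries, against 13, 10.9 and 6.0 in the negative libraries (log2 fold change 2.13 ± 0.29 SE, adjusted p = 0.00502). SDC2, a transmembrane heparan sulfate proteoglycan, was called with a small rise (log2 fold change 0.42). SULF2, the sulfatase that removes sulfate from heparan sulfate outside the cell, was called lower, at 1.0, 5.70 and 6.10 in the positive libraries, against 168, 148 and 156 in the negative libraries. Of the 9 calls, 4 were kept whichever library was left out. After each chromosome's median was taken out, 3 higher and 3 lower members of the list were called.

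Membrane-cortex linkers gave 3 calls higher and 6 lower among 36 tested (25%, against 10.2% of all genes), of which 4 were kept whichever library was left out. EPB41L3, a band 4.1 protein that ties membrane receptors to the spectrin-actin cortex, was at 579, 534 and 470.2 in the positive libraries, against 95.8, 109.8 and 109.5 in the negative libraries. It was 4.98-fold higher (log2 fold change 2.32 ± 0.11 SE, adjusted p = 7.35e-05), and lies on chromosome 18, where most called genes were lower. PODXL, a heavily charged sialomucin bound to ezrin, was at 101, 88 and 99.3 in the positive libraries, against 242, 205 and 221 in the negative libraries (log2 fold change -1.20 ± 0.11 SE, adjusted p = 0.00105). AHNAK, a giant scaffold protein under the membrane, was at 13276, 13016 and 14043 in the positive libraries, against 17027, 16755 and 17631 in the negative libraries (log2 fold change -0.35 ± 0.05 SE, adjusted p = 0.00624). It lies on chromosome 11, and with each chromosome's median taken out its adjusted p was 0.708.

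Of 61 phosphoinositide enzymes, 3 were called higher and 5 lower (13.1%, against 10.2%), and 2 of these 8 calls, PLCB1 and PLCB2, held whichever library was left out. After each chromosome's median was taken out, 3 higher and 1 lower members of this list were called. PLCB1, which cleaves PIP2 downstream of Gq-coupled receptors, was at 842, 796 and 649 in the positive libraries, against 312, 301 and 296 in the negative libraries (log2 fold change 1.32 ± 0.10 SE, adjusted p = 0.000648). PLCB2, its relative best known from blood and taste cells, was at 6.20, 11.4 and 8.10 in the positive libraries, against 61.8, 54.4 and 67.7 in the negative libraries. No positive library came near a negative one (log2 fold change -2.73 ± 0.25 SE, adjusted p = 0.00103). The other two higher calls were the phospholipases PLCG2 and PLCB4 (log2 fold changes 0.81 and 0.37), and neither held without positive replicate 1 or 2 or negative replicate 2 or 3; PLCG2 did not hold without negative replicate 1 either. Among tubulins and microtubule-binding proteins, 7 of 47 were called higher and 4 lower (23.4%, against 10.2% of all genes). Of these, 2 of the higher and 1 of the lower calls held whichever library was left out. With each chromosome's median taken out, 4 higher and 1 lower members were called. The neuronal microtubule stabilizers MAP2 and MAP1B were both higher. MAP2 was at 196, 167 and 145 in the positive libraries, against 50.9, 40.6 and 39.8 in the negative libraries (log2 fold change 1.93 ± 0.16 SE, adjusted p = 0.000745), and MAP1B was at 763, 809.8 and 758 in the positive libraries, against 400.0, 362 and 364 in the negative libraries (log2 fold change 1.05 ± 0.07 SE, adjusted p = 0.000323). STMN3, a stathmin that takes up free tubulin, was at 441, 442 and 459 in the positive libraries, against 829, 857 and 861 in the negative libraries (log2 fold change -0.92 ± 0.06 SE, adjusted p = 0.000263). DYNC1I1, a cargo-binding chain of cytoplasmic dynein, was at 136, 114 and 112 in the positive libraries, against 16, 19.8 and 17.9 in the negative libraries. That is 6.45-fold, in a list of 46 kinesins and dynein genes with 2 called higher and 3 lower (10.9%, near the 10.2% of all genes).

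Ligands of receptor tyrosine kinases had the highest called share of the 44 lists shown, each with at least 10 tested members, 10 higher and 2 lower of 37 (32.4% against 10.2%), and 5 of these 12 calls held whichever library was left out. KITLG, the stem cell factor that melanocyte precursors need, was at 132, 162 and 147 in the positive libraries, against 66.8, 47.5 and 62.7 in the negative libraries (log2 fold change 1.31 ± 0.16 SE, adjusted p = 0.00338); RP11-900F13.3 overlaps it. EFNB2, a membrane-bound ligand of Eph receptors, was at 212, 202 and 163 in the positive libraries, against 82.8, 44.5 and 65.7 in the negative libraries (log2 fold change 1.60 ± 0.22 SE, adjusted p = 0.00562). The related heparin-binding growth factors PTN and MDK went opposite ways. PTN was at 195, 239 and 211 in the positive libraries, against 108, 95 and 97.5 in the negative libraries (log2 fold change 1.09 ± 0.11 SE, adjusted p = 0.0017), and MDK was at 22.8, 27.4 and 29.4 in the positive libraries, against 88.8, 84.1 and 80.6 in the negative libraries (log2 fold change -1.64 ± 0.16 SE, adjusted p = 0.00125). HGF, the scatter factor, was at 12.5, 18 and 29.4 in the positive libraries, against 83.8, 134 and 135 in the negative libraries, whereas MET, its receptor, was at 1086, 1093 and 1058 in the positive libraries, against 684, 776 and 731 in the negative libraries. The ligand was 5.86-fold lower in positive cells (adjusted p = 0.00377) and the receptor 1.48-fold higher (adjusted p = 0.00243).

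Receptor tyrosine kinases themselves gave 4 higher and 4 lower of 30 (26.7%, against 10.2% of all genes), of which 3 higher and 2 lower held whichever library was left out. ROR1, a Wnt5a receptor, was higher (log2 fold change 0.63), as was the collagen receptor DDR2 (0.38), and its relative DDR1 was lower (-0.72), as was the insulin receptor INSR (-0.52). Of 30 BMP pathway genes, 5 were called higher and 4 lower (30%, against 10.2% of all genes), and 4 of these 9 calls held whichever library was left out. FST, which traps activin and BMPs, was at 651, 682 and 729.7 in the positive libraries, against 1116, 1133 and 1243 in the negative libraries (log2 fold change -0.76 ± 0.07 SE, adjusted p = 0.00107), and its relative FSTL1 was at 584, 579 and 591 in the positive libraries, against 333, 376 and 367 in the negative libraries (log2 fold change 0.71 ± 0.07 SE, adjusted p = 0.0015). JAG1, a Notch ligand, was at 181, 211 and 186 in the positive libraries, against 105, 86.1 and 93.6 in the negative libraries (log2 fold change 1.02 ± 0.12 SE, adjusted p = 0.00275). IGFBP4, which binds and holds insulin-like growth factors, was at 45.7, 45.4 and 55.7 in the positive libraries, against 354, 274 and 279 in the negative libraries (log2 fold change -2.60 ± 0.14 SE, adjusted p = 0.000168). IL24, a cytokine first isolated from differentiating melanoma cells, was among the most abundant genes with a large change, at 2494, 2410.4 and 3858 in the positive libraries, against 10238, 15189.5 and 15195 in the negative libraries. Its 3 positive libraries were all below the lowest negative one, and such separation held in every called gene (log2 fold change -2.22 ± 0.21 SE, adjusted p = 0.00119). The IL24 log2 fold change was -2.02 with the number set as a block.

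**Figure D2:**
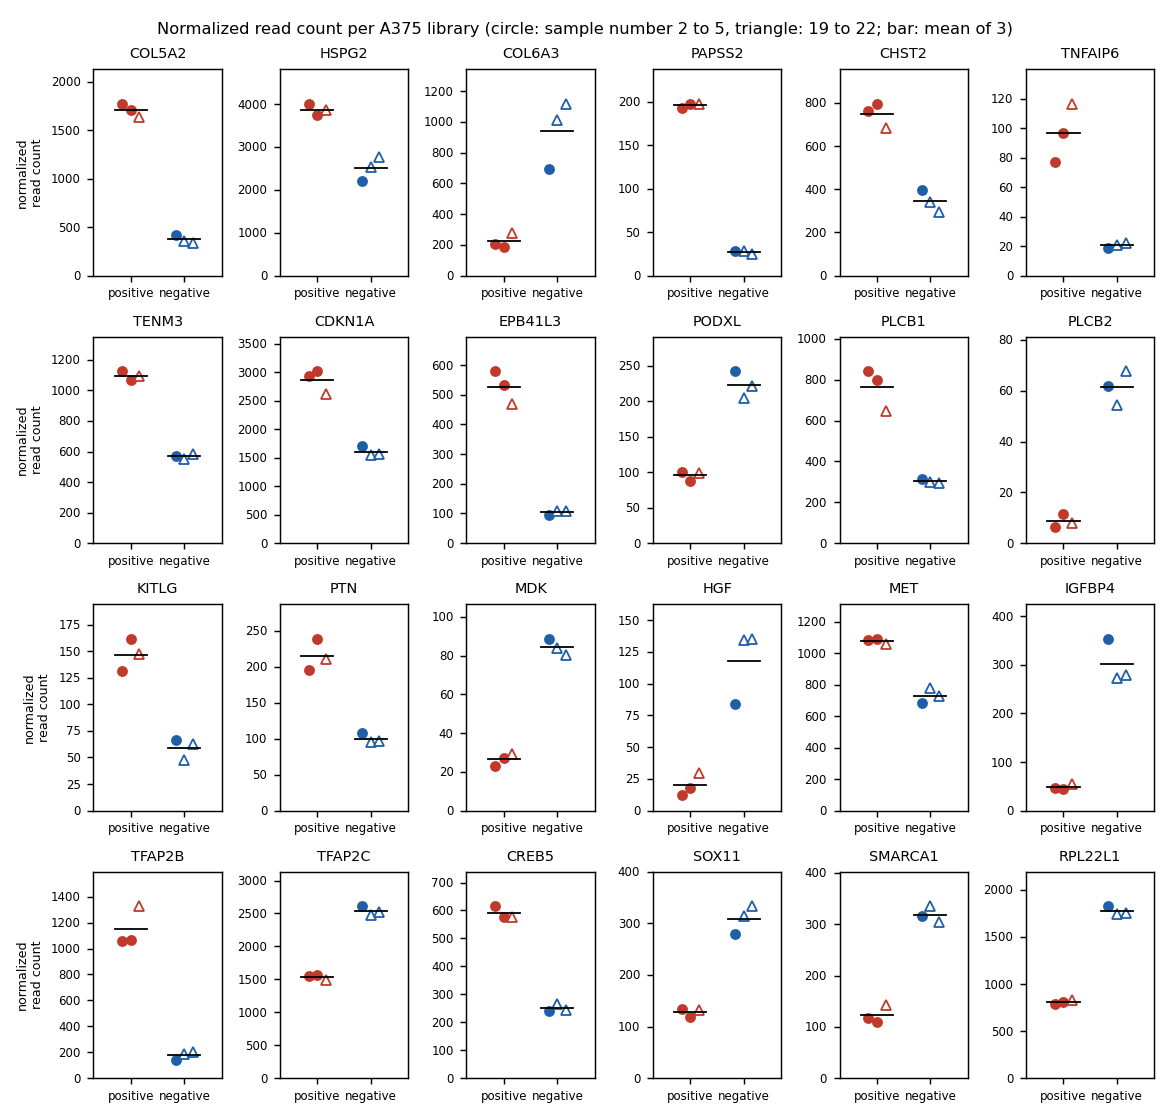
Normalized read count in each A375 library (y axis, from 0, own scale per gene) for 24 genes, with the 3 positive libraries on the left in red and the 3 negative ones on the right in blue; circles are libraries with sample numbers 2 to 5, open triangles those with 19 to 22, and bars are means. All 24 are called genes, and the branches overlap in none of them, as in every called gene and in 29.5% of all tested genes. The high set stands apart within a branch in some, such as COL6A3.

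**Figure D3:**
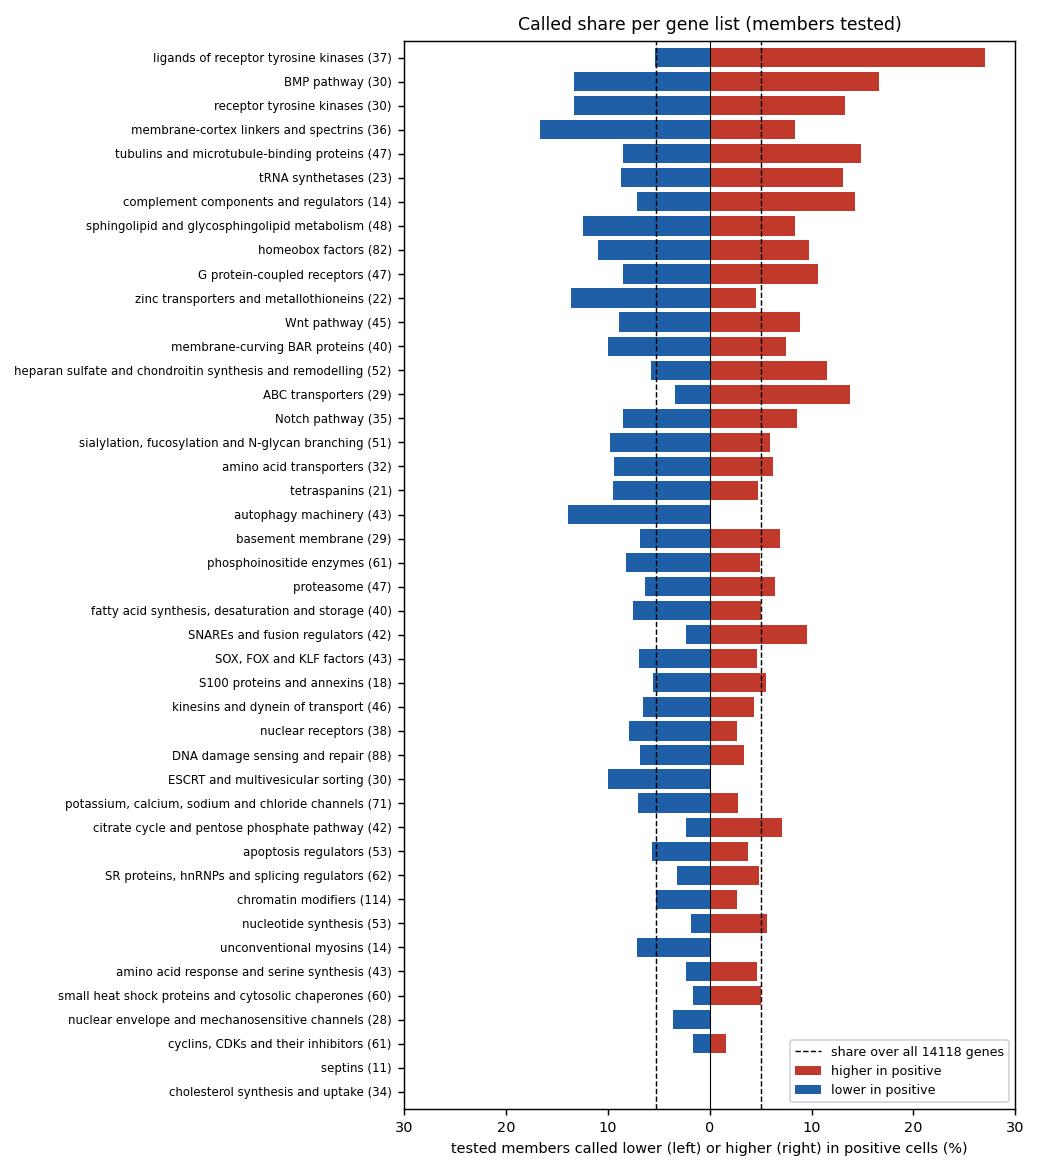
Percent of tested members called lower (left, blue) or higher (right, red) in positive cells for 44 lists, with the number tested in brackets and dashed lines at the shares over all 14118 genes (4.99% higher, 5.26% lower). Ligands of receptor tyrosine kinases have the largest share, and septins and cholesterol genes have no call.

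Of 71 ion channel genes, 2 were called higher and 5 lower (9.86%, near the 10.2% of all genes). SLC8A1, the sodium-calcium exchanger that clears calcium from the cell, was at 122, 135 and 158 in the positive libraries, against 16, 17.8 and 12.9 in the negative libraries (log2 fold change 3.07 ± 0.18 SE, adjusted p = 0.000227). CACNA2D1, an auxiliary subunit of voltage-gated calcium channels, was at 147, 143 and 154 in the positive libraries, against 47.9, 64.3 and 54.7 in the negative libraries (log2 fold change 1.41 ± 0.14 SE, adjusted p = 0.00138). Both potassium channels named here were lower. KCNA2 was at 24.9, 33.1 and 45.6 in the positive libraries, against 133, 143 and 158 in the negative libraries (log2 fold change -2.07 ± 0.22 SE, adjusted p = 0.0017). KCNJ12, an inward rectifier, was at 22.8, 26.5 and 40.5 in the positive libraries, against 98.7, 183 and 153 in the negative libraries (log2 fold change -2.23 ± 0.28 SE, adjusted p = 0.00377). KCNJ12 has near-identical copies, between which counts may be split. G protein-coupled receptors gave 5 higher and 4 lower of 47 (19.1%, against 10.2% of all genes), of which 6 held whichever library was left out. S1PR3, a receptor for sphingosine 1-phosphate, was at 68.5, 73.8 and 84.1 in the positive libraries, against 34.9, 34.6 and 30.9 in the negative libraries (log2 fold change 1.15 ± 0.15 SE, adjusted p = 0.00445), and GABBR2, a subunit of the GABA-B receptor, was at 228, 248 and 149 in the positive libraries, against 50.9, 41.5 and 32.8 in the negative libraries (log2 fold change 2.28 ± 0.23 SE, adjusted p = 0.0015). SCARA5, a scavenger receptor that takes up ferritin, was at 77.9, 95.5 and 131 in the positive libraries, against 262, 610.3 and 578 in the negative libraries. It was called lower (log2 fold change -2.18 ± 0.33 SE, adjusted p = 0.00723), with negative replicate 1 below negative replicates 2 and 3. The SCARA5 log2 fold change was -1.88 with the number set as a block.

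GLUL, glutamine synthetase, was at 3.10, 5.70 and 9.10 in the positive libraries, against 83.8, 80.1 and 78.6 in the negative libraries (log2 fold change -3.65 ± 0.33 SE, adjusted p = 0.000952). Transporters of its substrate and product were called too: SLC1A3, a glutamate importer, was at 52.9, 55.8 and 45.6 in the positive libraries, against 13, 13.8 and 14.9 in the negative libraries (log2 fold change 1.81 ± 0.18 SE, adjusted p = 0.0015), and SLC38A1, a glutamine importer, was at 1152, 1100.2 and 1049 in the positive libraries, against 1718, 1683 and 1709 in the negative libraries (log2 fold change -0.63 ± 0.05 SE, adjusted p = 0.000862). SLC1A4, which carries alanine, serine and cysteine, was at 4891, 4714 and 3685 in the positive libraries, against 2872, 2508 and 2561 in the negative libraries (log2 fold change 0.73 ± 0.11 SE, adjusted p = 0.00706). In all, 2 of 32 amino acid transporters were called higher and 3 lower (15.6%, against 10.2% of all genes). The list that holds GLUL, amino acid response and serine synthesis, gave 2 higher and 1 lower of 43 (6.98%, below that share). ABCA8, a lipid-exporting ABC transporter, was at 574, 541 and 762 in the positive libraries, against 112, 121 and 141 in the negative libraries (log2 fold change 2.31 ± 0.15 SE, adjusted p = 0.000263). SGMS2, the sphingomyelin synthase of the plasma membrane, was at 57.1, 39.7 and 28.4 in the positive libraries, against 4.0, 4.0 and 4.0 in the negative libraries, the negative level being close to the detection floor. The sphingolipid list had calls in both directions, 4 higher and 6 lower of 48 (20.8%, against 10.2% of all genes), with 7 holding whichever library was left out. GALC (log2 fold change -0.95) and UGCG (-0.44), enzymes of galactosyl and glucosyl ceramide, were lower. No gene of 34 for cholesterol synthesis and uptake was called by limma, with 4 at an unadjusted p under 0.05; with the number set as a block 5 were higher and 6 lower.

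The AP-2 family transcription factors TFAP2B and TFAP2C changed in opposite directions. TFAP2B, a neural crest factor, was at 1058, 1067 and 1327 in the positive libraries, against 143, 188 and 199 in the negative libraries (log2 fold change 2.70 ± 0.14 SE, adjusted p = 0.000143), and TFAP2C was at 1552, 1563 and 1491 in the positive libraries, against 2611, 2472 and 2522 in the negative libraries (log2 fold change -0.72 ± 0.05 SE, adjusted p = 0.000355). The branches do not overlap in either gene, as in every called gene. CREB5, a leucine zipper factor, was at 616, 575 and 578 in the positive libraries, against 238, 265 and 245 in the negative libraries (log2 fold change 1.24 ± 0.08 SE, adjusted p = 0.000227), and SOX11, a neural progenitor factor, was at 134, 119 and 133 in the positive libraries, against 280.3, 315 and 334 in the negative libraries (log2 fold change -1.26 ± 0.10 SE, adjusted p = 0.000726). SMARCA1, the SNF2L remodelling ATPase, was at 117, 109.7 and 142 in the positive libraries, against 316, 335 and 304 in the negative libraries (log2 fold change -1.37 ± 0.12 SE, adjusted p = 0.000745), whereas SMARCA2, the BRM ATPase of SWI/SNF, was at 473, 507 and 464 in the positive libraries, against 252, 339 and 285 in the negative libraries (log2 fold change 0.73 ± 0.11 SE, adjusted p = 0.00793). Chromatin modifiers gave 3 higher and 6 lower of 114 (7.9%, below the 10.2% of all genes). Homeobox factors gave 8 higher and 9 lower of 82 (20.7%, against 10.2% of all genes), but 3 of those 17 held whichever library was left out. After each chromosome's median was taken out, 4 higher and 4 lower homeobox factors were called. PPARG, a nuclear receptor of lipid metabolism that is also among the urothelial markers above, was at 61.3, 55.8 and 69.9 in the positive libraries, against 145, 136 and 143 in the negative libraries (log2 fold change -1.18 ± 0.13 SE, adjusted p = 0.00182). Of 8 tested melanocyte lineage markers, 1 was called higher and 2 lower (37.5%, against 10.2% of all genes), with a median log2 fold change of -0.03. TYR, the first enzyme of melanin synthesis, was at 8.30, 11.4 and 7.10 in the positive libraries, against 48.9, 69.2 and 92.6 in the negative libraries (log2 fold change -2.82 ± 0.29 SE, adjusted p = 0.0015), and it lies on chromosome 11, where its adjusted p was 0.00223 with the chromosome's median taken out. DCT, a later enzyme of that pathway, was called lower at 3859, 4417 and 6208 in the positive libraries, against 7154, 15184 and 14845 in the negative libraries (log2 fold change -1.31 ± 0.30 SE, adjusted p = 0.0312). The DCT log2 fold change was -1.03 with the number set as a block. EDNRB, an endothelin receptor, was called higher at 909, 971 and 1042 in the positive libraries, against 597, 772 and 774 in the negative libraries (log2 fold change 0.45 ± 0.11 SE, adjusted p = 0.0395). Neither call held without positive replicate 1 or 2 or negative replicate 2 or 3 (adjusted p 0.115 to 0.124 for DCT, 0.0739 to 0.137 for EDNRB), and that of EDNRB did not hold without positive replicate 3 (0.0668). The melanocyte regulator MITF averaged 4133 ± 813 in positive and 4695 ± 1189.5 in negative cells (SD, n = 3 each), with an adjusted p of 0.677 from limma. CDKN1A, the p21 inhibitor of cyclin-dependent kinases, was at 2943, 3019 and 2626 in the positive libraries, against 1708, 1544 and 1562 in the negative libraries (log2 fold change 0.83 ± 0.07 SE, adjusted p = 0.000745). Its list of 61 cyclins, CDKs and inhibitors had 1 call in each direction (3.28%, against 10.2% of all genes).

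When libraries of the same branch and number set were averaged to 1 value, 53 genes (0.375%) were called, 28 higher and 25 lower, all of them among the 1447. Of the genes described above, COL5A2, TNFAIP6, CCBE1, PAPSS2, SULF2, EPB41L3, PLCB2, MAP1B, STMN3 and DYNC1I1 were among these 53. So were IGFBP4, SLC8A1, GLUL, ABCA8, TFAP2B, TFAP2C and CREB5, but none of the others described above with their values. The 53 also included SERPINH1, the collagen chaperone HSP47, at 59.2, 54.9 and 49.7 in the positive libraries, against 2082, 1692 and 1759 in the negative libraries (log2 fold change -5.05 ± 0.11 SE, adjusted p = 9.89e-07). RPL22L1, a paralog of the ribosomal protein RPL22, was at 787, 805 and 828 in the positive libraries, against 1828, 1744 and 1751 in the negative libraries (log2 fold change -1.14 ± 0.05 SE, adjusted p = 7.35e-05). SLC16A3, the lactate exporter MCT4, was at 1038, 964 and 927 in the positive libraries, against 204, 172 and 179 in the negative libraries (log2 fold change 2.40 ± 0.09 SE, adjusted p = 3.33e-05); it overlaps CSNK1D. TENM3, a neuronal adhesion protein, was at 1126, 1071 and 1096 in the positive libraries, against 572, 550.0 and 586 in the negative libraries (log2 fold change 0.95 ± 0.06 SE, adjusted p = 0.000227). Promoter windows from RefSeq on GRCh38.p14, from 250 bases before to 50 after the start, are printed for 2 genes per direction to show the sequence in front of them. They were taken among the protein-coding genes that have a window and the smallest adjusted p in that fit; TFAP2B was tied with EPB41L3, VCAN and SLC8A1. PAPSS2 and COL5A2 have no entry there. Capitals mark matches to any of 9 motifs.
SLC16A3, chr17:82228185-82228484, plus strand: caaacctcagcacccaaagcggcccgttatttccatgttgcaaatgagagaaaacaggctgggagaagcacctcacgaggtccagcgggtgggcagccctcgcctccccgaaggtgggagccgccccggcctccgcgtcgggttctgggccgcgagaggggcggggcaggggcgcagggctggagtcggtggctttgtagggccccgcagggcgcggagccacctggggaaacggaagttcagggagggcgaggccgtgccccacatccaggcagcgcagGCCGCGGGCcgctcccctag
TFAP2B, chr6:50818621-50818920, plus strand: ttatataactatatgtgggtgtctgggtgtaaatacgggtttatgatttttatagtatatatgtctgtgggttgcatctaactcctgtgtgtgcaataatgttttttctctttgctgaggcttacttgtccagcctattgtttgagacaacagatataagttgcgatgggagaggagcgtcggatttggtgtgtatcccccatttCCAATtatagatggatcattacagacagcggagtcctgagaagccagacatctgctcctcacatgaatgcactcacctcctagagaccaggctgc
SERPINH1, chr11:75562003-75562302, plus strand: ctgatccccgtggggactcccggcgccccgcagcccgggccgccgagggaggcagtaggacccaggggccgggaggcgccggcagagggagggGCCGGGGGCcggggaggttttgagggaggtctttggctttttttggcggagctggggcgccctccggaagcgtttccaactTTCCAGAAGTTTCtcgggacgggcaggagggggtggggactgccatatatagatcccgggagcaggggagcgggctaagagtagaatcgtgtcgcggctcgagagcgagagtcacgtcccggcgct
RPL22L1, chr3:170870146-170870445, minus strand: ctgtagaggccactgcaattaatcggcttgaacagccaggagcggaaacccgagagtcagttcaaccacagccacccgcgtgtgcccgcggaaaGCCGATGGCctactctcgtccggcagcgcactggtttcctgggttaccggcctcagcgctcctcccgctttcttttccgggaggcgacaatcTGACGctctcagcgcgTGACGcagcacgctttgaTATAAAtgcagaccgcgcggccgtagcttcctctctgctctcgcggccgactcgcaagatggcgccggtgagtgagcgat

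All 9 motifs were chosen after the gene results had been seen, and each was searched in the windows of the 9944 of 14118 tested genes matched by symbol. Shares are of windows of genes called higher, then called lower, then tested. Searches covered both strands, except that of the TATA box. The AP-2 motif GCCNNNGGC was in 30.5%, 34.9% and 32.1%. The full cyclic AMP element, TGACGTCA, was in 1.46%, 3.68% and 3.30%. Its shorter core TGACG, which the full element contains, was in 28.3%, 28.3% and 34.4%. A heat shock element, GAANNTTC or TTCNNGAA, was in 10.4%, 9.93% and 9.91%. The AP-1 motif TGACTCA was in 3.47%, 2.21% and 3.04%. The TEAD motif CATTCC was in 9.67%, 11.9% and 10.9%. An E-box, CACGTG, was in 9.31%, 11.2% and 10.5%. The CCAAT box was in 35.4%, 32.5% and 36.9%. The TATA box TATAAA was in 4.56%, 2.94% and 3.33%. Over all 27305 RefSeq windows the shares were 23%, 1.98%, 25%, 13.7%, 4.92%, 14%, 7.43%, 35.7% and 7.71% in the order of these sentences. A match describes these letters alone. TFAP2B itself had no AP-2 match and 1 CCAAT match, SERPINH1 had 1 AP-2 match and 2 overlapping heat shock elements, SLC16A3 had 1 AP-2 match, and RPL22L1 had 1 AP-2 match, 2 matches to the shorter cyclic AMP core and 1 TATA box.

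In several lists of basic cell machinery, picked after their values were seen, the called genes lay on a few chromosomes. On chromosome 1, 225 of 1437 tested genes were called higher and 25 lower (median log2 fold change 0.16), on chromosome 11, 8 and 244 of 772 (-0.27), on chromosome 18, 9 and 46 of 206 (-0.20), and on chromosome 20, 21 and 55 of 381 (-0.13). On the other chromosomes 441 of 11322 were higher and 373 lower (7.19%). In the autophagy list, 6 of 43 were called (14%, against 10.2% of all genes), all lower and all on chromosomes 11, 18 or 20, and 1 of the 6, the ULK1-complex subunit ATG13 (log2 fold change -0.48), held whichever library was left out. The ESCRT list, for sorting into multivesicular bodies, gave 3 of 30 (10%, near the background), all lower and on the same chromosomes, with VPS4B (-0.52) and TSG101 (-0.44) holding in every left-out fit. Among 23 tRNA synthetases (21.7% called, with 1 call holding in every left-out fit), the 3 higher ones were on chromosome 1 and the 2 lower ones on 11 and 18. With each chromosome's median taken out, none of these 14 calls remained. Over all genes, 875 were then called (507 higher, 368 lower), 795 of them shared with the 1447. Of 244 lower calls on chromosome 11, 19 remained. Of 11 septins none was called by limma, with 2 at an unadjusted p under 0.05; with the number set as a block 2 were higher and 1 lower.

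**Figure D4:**
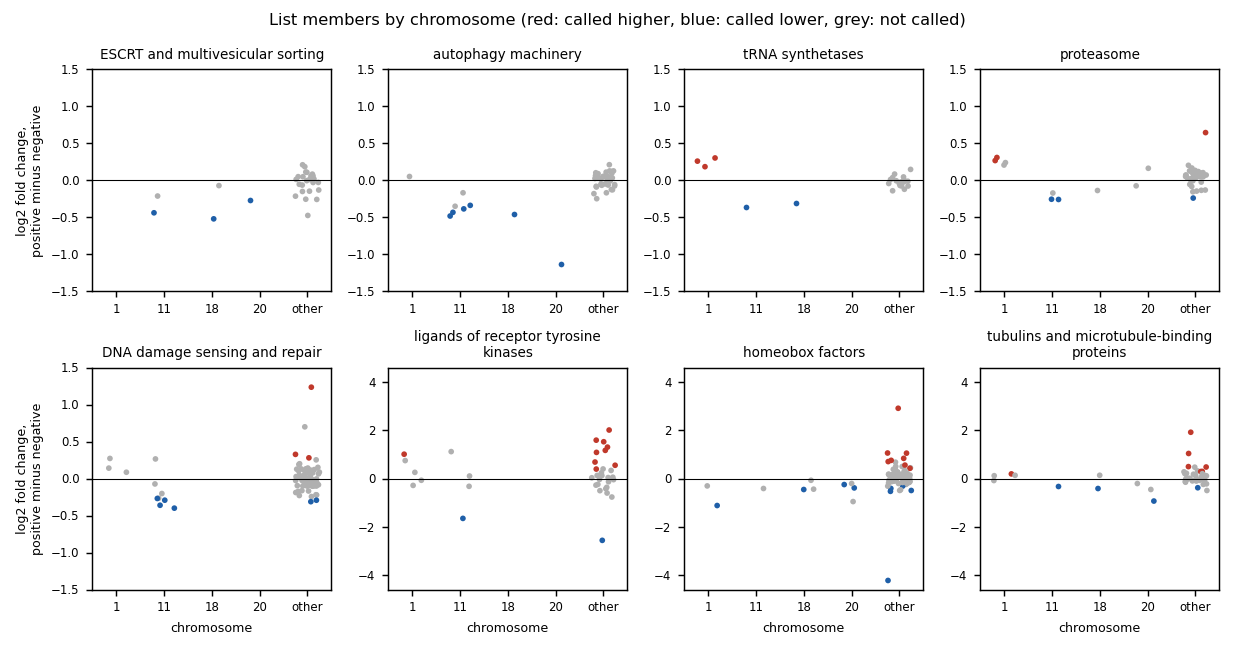
Log2 fold change (y axis, positive minus negative; the lower middle and right panels have a wider scale) of tested members of 8 lists, chosen after their values were seen, by chromosome (x axis: 1, 11, 18, 20 and all others). All called members of the autophagy, ESCRT and tRNA synthetase lists lie on the 4 named chromosomes, while those of the ligand, homeobox and tubulin lists lie mostly on the others.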

How the data were processed

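Poly(A) RNA-seq of 6 A375 libraries was used, and the 253J libraries are not used here. Reads were trimmed, aligned and counted with cutadapt, STAR 2.4.2a, HTSeq and DESeq2 on GRCh38, per the submitters' processing notes; their settings, the annotation release and the strand are not given in the sources used here. The deposited signal values are normalized counts per gene, per the file headers, so the authors divided each library by a size factor and rounded. Depth, and the reads behind the chi-square values, were estimated from the steps between values. Gene positions are from GENCODE 29 (99.6% of identifiers matched).

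Positive was set against negative with limma (version 3.58.1 in R 4.3.3, trend option), with no covariate. Input was log2(value + 1) of genes averaging at least 10, and Benjamini-Hochberg adjusted p-values of at most 0.05 were called. The script was tested on simulated libraries drawn independently and without a number-set effect, so that test does not give the error rate in these data. Members, the 55 gene lists and the motifs were chosen with earlier results of these data known. Named genes are a choice of 203 given by rule: ranks 9 to 20 by size of change per direction among called genes averaging at least 50, the 6 most abundant called genes per direction changed at least 1.5-fold, up to 3 called members per list with the smallest p, up to 10 per direction also called with same-set libraries averaged, and cell type markers. DSE, EFNB2, ROR1, DDR2, S1PR3, GALC, UGCG, SMARCA2, PLCG2 and PLCB4 fall outside it and were chosen after their values were seen. SERPINH1 and SULF2 enter through the lists or the averaged fit. Same-numbered positive and negative libraries had correlated deviations of 0.415, -0.272 and 0.397. Across branches, libraries of 1 number set were correlated at 0.382 to 0.426 and those of different sets at -0.583 to -0.268. The sign went with the number set, so these values cannot decide whether the replicate numbers pair the libraries. Some gene lists and genes are not reported here.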

Additional observations from a re-analysis of the deposited data

How the results depend on the processing

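The count of called genes depended on how the spread between libraries was treated. With the number set as a block, limma called 4523 genes (2199 higher, 2324 lower), which held all 1447. With same-set libraries averaged it called 53 (28 higher, 25 lower). Within the low set alone the counts were 2906 (1472 higher, 1434 lower) and within the high set alone 2335 (1080 higher, 1255 lower); both were chosen after seeing the data, and the lone library of a branch was assumed to vary like the others. With the replicate number as a block, though pairing by that number is not established, 2429 were called (1152 higher, 1277 lower). Taking out each chromosome's median left 875 (507 higher, 368 lower). Leaving out 1 library gave 487 to 1881 calls, 229 to 899 higher and 252 to 982 lower. Pseudocounts of 0.5 and 5, no filter, a mean of at least 50 and quantile normalization (added after seeing the data) kept each count within 1.5 times. Of the 203 genes, SLC39A13, CD59, CD81, PSMD13 and DDB1 on chromosome 11 turned to log2 fold changes of 0.0091, 0.0285, 0.0585, 0.0529 and 0.0447 with the chromosome median taken out, and PMEL and MITF were at 0.26 and 0.14 within the low set; the cause was not tested. The planned TMM, edgeR and DESeq2 alternatives were not run, because whole reads could not be established for the negative libraries under the rule used. Their estimated steps, 0.989 to 0.997, lay too close to 1 for that rule. Depth and the chi-square values rest on reads estimated from such steps. Depth limits the genes near the floor.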

Other observations

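Of long non-coding genes, 23 of 461 lincRNAs were higher and 13 lower (7.81%), beside 663 higher and 706 lower of 12124 protein-coding genes (11.3%). LINC01287 was at 642, 622 and 668 in the positive libraries, against 1527, 1734 and 1802 in the negative libraries (log2 fold change -1.39 ± 0.07 SE, adjusted p = 0.000143, limma). The cancer-testis gene PAGE5 was at 373, 378 and 410.4 in the positive libraries, against 868, 868 and 848 in the negative libraries (log2 fold change -1.15 ± 0.06 SE, adjusted p = 0.000168, limma), the anion exchanger SLC26A4 at 163, 166 and 162 in the positive libraries, against 363, 364 and 345 in the negative libraries (log2 fold change -1.12 ± 0.08 SE, adjusted p = 0.000355, limma), and the mismatch repair gene MLH3 at 202, 186 and 206 in the positive libraries, against 62.8, 92 and 100.5 in the negative libraries (log2 fold change 1.24 ± 0.18 SE, adjusted p = 0.00602, limma). In each, as in every called gene, the ranges of the branches were separate. Transcripts encoded by mitochondria were 7.13% to 7.49% of normalized counts in positive and 6.71% to 7.37% in negative libraries.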
